A study of Mus musculus with 7 samples.

Results

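The genes described here are 9 adhesion molecules through which blood leukocytes hold on to endothelium, the inner lining of vessels. They were chosen by name from the 32544 genes measured. The rule for the choice uses no measured value, but earlier results of these data were known when it was made. Vcam1, Icam1, Icam2, Sele and Selp stand for the endothelial side, and Itga4, Itgal, Itgb2 and Selplg for the leukocyte side. All 9 were in the table, and 8 passed the filter on low levels, a log2(CPM + 1) that averaged 1 or more across the 7 libraries. Sele did not pass it and is given by its values alone. CPM is a gene's reads per 1000000 reads of its library that fell in the listed genes.

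RNA came from whole abdominal aortas of male Apoe-/- mice, a strain that lacks apolipoprotein E and forms atherosclerotic plaques, kept on a high-fat diet for 12 weeks. There were 3 libraries from mice given ITA-LNP and 4 from mice given the control particle Ctrl-LNP, each at 50 mg/kg into a vein 1 time a week. LNP usually stands for lipid nanoparticle, and ITA was read as itaconate from the series title. Both groups carry the Apoe deletion and the diet. The series title concerns cholesterol efflux, and adhesion molecules can be compared between the same 2 groups.

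Leukocytes leave the blood in steps. The selectins Sele (E-selectin) and Selp (P-selectin) bind sugars on leukocyte proteins such as PSGL-1, the product of Selplg, and let the cells roll along the wall. Firm arrest follows when the integrin alpha4 chain (Itga4, in VLA-4 with its beta1 partner) binds VCAM-1, and when LFA-1, made of the chains of Itgal and Itgb2, binds ICAM-1 and ICAM-2. In atherosclerosis VCAM-1 and ICAM-1 are known from endothelium over plaques, and smooth muscle cells can make VCAM-1 as well. Platelets store P-selectin in their granules and carry ICAM-2, which resting endothelium also makes.

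The libraries labelled control-LNP did not look like vessel wall, and this bears on every comparison below: whether they hold the tissue on their labels was not tested, and a difference in tissue and a difference in treatment cannot be told apart here. Acta2, the smooth muscle actin, stood at 10802 ± 1557 CPM with ITA-LNP and 98.9 ± 29.8 CPM with control-LNP (SD, n = 3 and 4). The summed CPM of 14 platelet markers were 141 to 216 with ITA-LNP and 11005 to 15152 with control-LNP, and those of 10 pan-leukocyte markers were 397 to 436 with ITA-LNP and 4329 to 5592 with control-LNP. Control-LNP replicate 2 stood apart within its group. Across genes it correlated at 0.607 to 0.625 with the rest of its group, whose members reached 0.933 to 0.949 among themselves; the ITA-LNP libraries reached 0.711 to 0.737. Depth was 5077073 to 7281721 reads per library, so 0 reads of a gene allow a level of up to 0.412 to 0.591 CPM (3 reads), counting error alone considered. In RNA from whole tissue, fewer cells of a type and less RNA per cell cannot be told apart. No label says that the libraries came from separate mice, and p-values then reflect only how these libraries spread, which may be technical.

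Members that passed the test were higher on the endothelial side and lower on the leukocyte side. Of the 8 members tested, Vcam1 and Selp rose with ITA-LNP and Itgal, Itgb2, Itga4 and Selplg fell, while Icam1 and Icam2 did not pass. These 2 higher and 4 lower members stand against 10.3% of all 12636 tested genes that were higher and 5.15% that were lower. Groups did not overlap for 8 of the 9 members. Every ITA-LNP library was above every control-LNP library for Vcam1, Icam1 and Selp, as for 19.1% of all tested genes. Every ITA-LNP library was below every control-LNP library for Icam2, Selplg, Itga4, Itgal and Itgb2, as for 10.7% of all tested genes. Tests were limma fits over all tested genes with Benjamini-Hochberg adjustment, fold changes are log2 of (CPM + 1) with ITA-LNP over control-LNP, and ± gives the standard error of a fold change, or the SD where so marked.

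**Figure D1:**
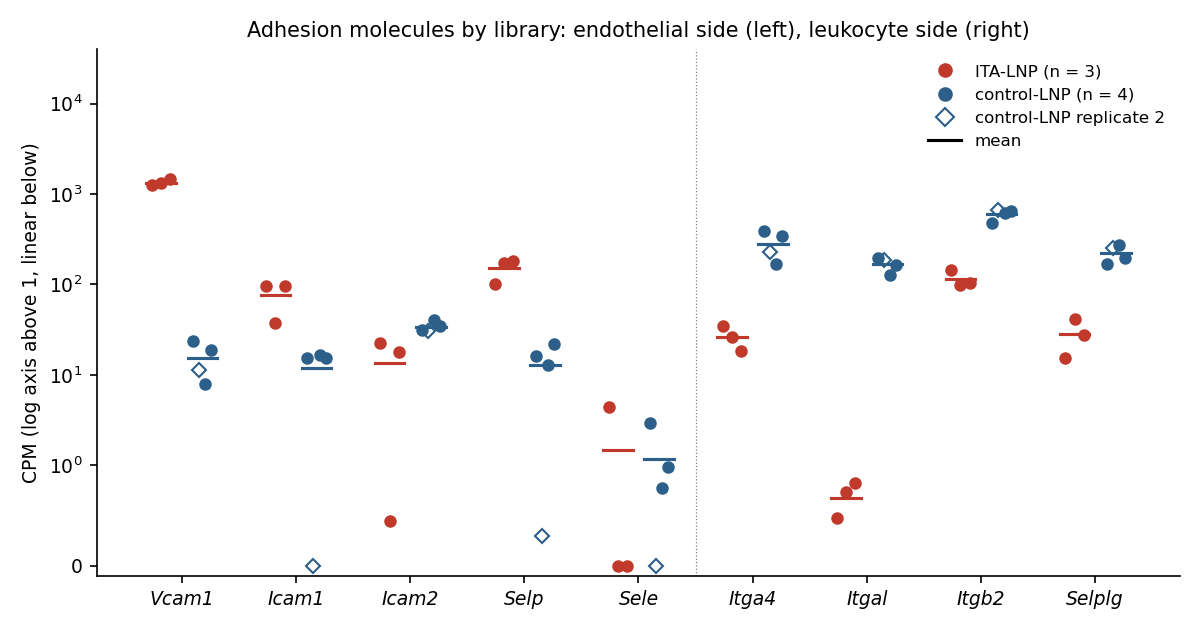
CPM of the 9 adhesion molecules in each library (vertical axis logarithmic above 1 CPM and linear below); filled points are libraries, open diamonds control-LNP replicate 2, and bars group means, with ITA-LNP left of control-LNP for each gene. Vcam1 lies above 1245 CPM in every ITA-LNP library and at 23.6 CPM or less in every control-LNP library, and Itgal lies the other way round, at 0.824 CPM or less with ITA-LNP and at 127 CPM or more with control-LNP.

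Vcam1 (chromosome 3, 116109949 to 116129688, minus strand, mm10) had the highest level of the 9 with ITA-LNP, at 1245, 1318 and 1453 CPM, against 23.6, 11.4, 7.89 and 18.7 CPM in control-LNP replicates 1 to 4. The ITA-LNP libraries lay close together and far above all others. The means were 1339 ± 105 CPM with ITA-LNP and 15.4 ± 7.11 CPM with control-LNP (SD, n = 3 and 4), a ratio of 87.0. This gave a log2 fold change of 6.46 ± 0.48 (adjusted p = 6.03e-05, limma). Vcam1 passed in all 16 alternative analyses, with log2 fold changes of 5.33 to 6.69.

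The control-LNP level of Vcam1 was 1.15% of its ITA-LNP level. Most markers of wall cells stood at low shares too. The control-LNP level was under 5% of the ITA-LNP level for 11 of 15 endothelial markers and 8 of 10 smooth muscle markers. It was 52.8% to 147% for the endothelial markers Esam, Tie1, Pecam1 and Vwf, 15.3% for the kinase gene Mylk and 51.6% for the myosin light chain gene Myl9. The summed CPM with control-LNP came to 19.2% of that with ITA-LNP for the endothelial list and 3.23% for the smooth muscle list. The share was 1.18% of the ITA-LNP level for Cdh5, the cadherin of endothelial junctions, 0.222% for the endothelial glycoprotein gene Emcn and 0.916% for Acta2. Cdh5 and Emcn, singled out here after their values were seen, had 434, 425 and 720 and 960, 1109 and 1820 reads with ITA-LNP, against 0 to 9 and 0 to 5 reads in the control-LNP libraries.

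Icam1 (chromosome 9, 21015985 to 21028817, plus strand) encodes a ligand of LFA-1 and Mac-1. It was at 95.5, 37.6 and 97.1 CPM with ITA-LNP, against 15.2, 0, 16.7 and 15.3 CPM in control-LNP replicates 1 to 4. Control-LNP replicate 2 held no Icam1 read, while the other control-LNP libraries lay close together. With all libraries, its log2 fold change of 3.11 ± 1.12 missed the threshold (adjusted p = 0.101; 95% interval 0.60 to 5.63). With control-LNP replicate 2 left out, Icam1 passed at 2.10 ± 0.46 (adjusted p = 0.0102), in a fit that called 31.4% of all genes in either direction, 15.7% as higher and 15.7% as lower. In that replicate, 36.4% of the 7102 genes that the other control-LNP libraries held at 10 CPM or more were under 1 CPM. Icam1 was among them. The same share was 0% to 0.0278% of 3591 to 3613 genes in the other control-LNP libraries. Their gene sets had to be held by replicate 2 as well, so the shares do not have a like base.

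Icam2 (chromosome 11, 106377656 to 106388075, minus strand) encodes the shorter ligand of LFA-1. It was at 22.4, 0.442 and 17.7 CPM with ITA-LNP, against 31.1, 30.5, 40.6 and 34.8 CPM in control-LNP replicates 1 to 4. The control-LNP values were narrow and all higher, and ITA-LNP replicate 2 held 3 reads where the other ITA-LNP libraries held 143 and 129. Its log2 fold change, -2.03 ± 1.03, did not pass (adjusted p = 0.229; 95% interval -4.35 to 0.29). It was -0.74 without ITA-LNP replicate 2 (adjusted p = 0.579). That replicate was under 1 CPM for 5.78% of the genes that both other ITA-LNP libraries held at 10 CPM or more, a share of 5.69% in replicate 3 and 2.61% in replicate 1. None of the 13 endothelial markers held by the others was among them.

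Of the ligands that LFA-1 shares, Icam1 was therefore higher in every ITA-LNP library and Icam2 lower. Pecam1 and Vwf, which platelets carry as well as endothelium and which were singled out after their values were seen, did not pass either. Pecam1 averaged 226 ± 50.1 CPM with ITA-LNP and 204 ± 114 CPM with control-LNP, and Vwf 78.0 ± 22.4 CPM with ITA-LNP and 114 ± 29.8 CPM with control-LNP (SD, n = 3 and 4). Summed platelet markers were 81.0 times as high with control-LNP as with ITA-LNP. Their part in the Icam2 level was not tested.

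Selp (chromosome 1, 164115264 to 164150026, plus strand) was at 101, 171 and 180 CPM with ITA-LNP, against 15.95, 0.299, 12.7 and 22.1 CPM in control-LNP replicates 1 to 4. Every ITA-LNP library was higher, and control-LNP replicate 2, with 2 reads, was the lowest of all. Selp rose by a log2 fold change of 4.00 ± 1.02 (adjusted p = 0.0245). The call was lost without any 1 of the ITA-LNP replicates (adjusted p = 0.0697, 0.0992 and 0.106), and the fold change was 3.07 without control-LNP replicate 2 (adjusted p = 0.000796). Of the platelet markers, 13 of 14 were lower with ITA-LNP and none was higher. Over all tested genes, 5.15% were lower and 10.3% higher. As a share of the summed platelet markers, Selp came to 46.6%, 121% and 111% in the ITA-LNP libraries and 0.00198% to 0.150% in the control-LNP libraries. That sum was itself 81.0 times as high with control-LNP, and which cells made Selp was not tested.

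Sele (chromosome 1, 164048234 to 164057677, plus strand) was hardly detected in either group. It had 28, 0 and 0 reads with ITA-LNP, at 4.39, 0 and 0 CPM, and 15, 0, 4 and 6 reads in control-LNP replicates 1 to 4, at 2.95, 0, 0.769 and 0.984 CPM. The groups overlapped, all ITA-LNP reads came from replicate 1, and no difference was detected with so few reads and such a spread. With no filter on low levels, its log2 fold change was -0.14 ± 0.73 (adjusted p = 0.920, limma).

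Itga4 (chromosome 2, 79255426 to 79333123, plus strand), the chain that binds VCAM-1, was at 35.0, 26.1 and 18.1 CPM with ITA-LNP, against 388, 231, 167 and 346 CPM in control-LNP replicates 1 to 4. The groups were far apart, and the mean with control-LNP was 10.7 times the mean with ITA-LNP. Itga4 fell, at a log2 fold change of -3.34 ± 0.49 (adjusted p = 0.00167). The last exon of Itga4 overlaps an exon of Cerkl on the other strand. Cerkl had 0, 70 and 134 reads with ITA-LNP and 165 to 895 with control-LNP, against 223, 177 and 132 and 869 to 2107 reads for Itga4. How the authors' counting split reads between them is not given in the sources used here.

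Itgal (chromosome 7, 127296260 to 127335138, plus strand), the alpha chain of LFA-1, was at 0.471, 0.737 and 0.824 CPM with ITA-LNP, on 3, 5 and 6 reads. In control-LNP replicates 1 to 4 it was at 195, 186, 127 and 164 CPM. The ITA-LNP values were near the limit that a count of 0 allows. Itgal fell, at a log2 fold change of -6.64 ± 0.65 (adjusted p = 0.000218). Per read sequenced, pooled over each group, Itgal was 246 times as high with control-LNP as with ITA-LNP (95% interval 147 to 451, exact, for counting error only).

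Itgb2 (chromosome 10, 77530252 to 77565708, plus strand), the beta chain that LFA-1 shares with Mac-1 and other leukocyte integrins, was at 143, 98.6 and 105 CPM with ITA-LNP, against 474, 663, 614 and 653 CPM in control-LNP replicates 1 to 4. It was lower in every ITA-LNP library, with a smaller fold change than Itgal at -2.38 ± 0.30 (adjusted p = 0.000879). The call was lost when each library was centred on its median (log2 fold change -3.51, adjusted p = 0.0580). It was kept in the other 15 alternatives, which include median centring without control-LNP replicate 2. The median log2(CPM + 1) of that replicate was 0.676, against 4.15 to 4.53 in the other libraries. Itgam and Itgax, other alpha partners of Itgb2 that were singled out after their values were seen, did not pass. Itgam averaged 30.8 ± 19.8 CPM with ITA-LNP and 172 ± 168 CPM with control-LNP, and Itgax 19.1 ± 19.4 CPM with ITA-LNP and 37.1 ± 15.03 CPM with control-LNP (SD, n = 3 and 4).

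Selplg (chromosome 5, 113818536 to 113832644, minus strand), which encodes PSGL-1, was at 15.2, 41.6 and 27.7 CPM with ITA-LNP, against 169, 255, 275 and 196 CPM in control-LNP replicates 1 to 4. The groups did not overlap. The log2 fold change was -3.02 ± 0.50 (adjusted p = 0.00286). The fall of Selplg, like that of Itga4 and Itgal, passed in all 16 alternative analyses.

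**Figure D2:**
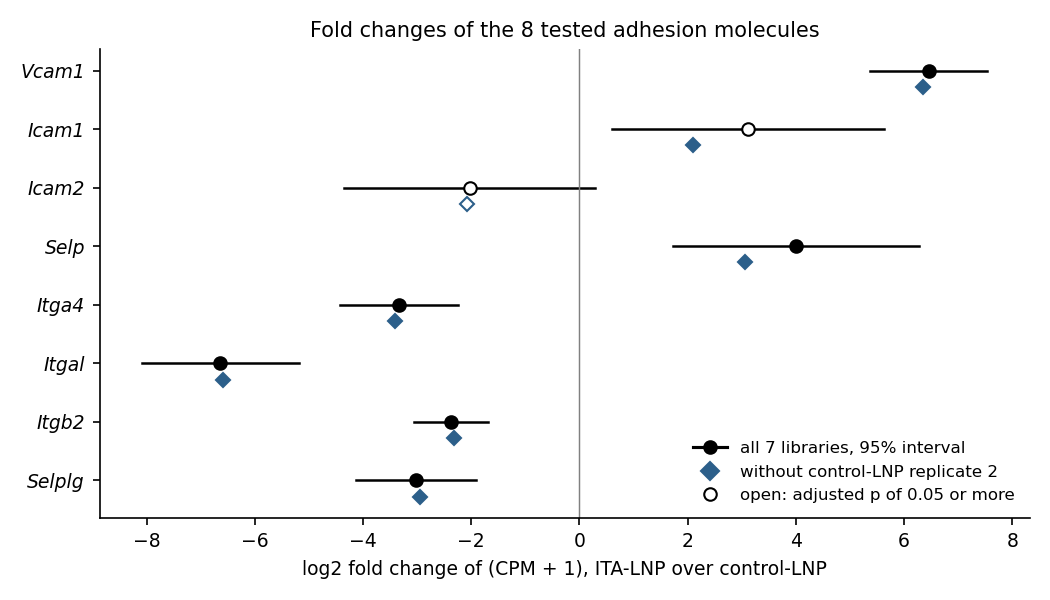
Log2 fold change of (CPM + 1), ITA-LNP over control-LNP, of the 8 tested adhesion molecules; circles with 95% intervals are from all 7 libraries, diamonds from 6 without control-LNP replicate 2, and open symbols have an adjusted p of 0.05 or more. Vcam1 (6.46) and Selp (4.00) lie to the right of 0 with their intervals, the leukocyte genes to the left, and of the 2 fits plotted Icam1 passes in the one without control-LNP replicate 2.

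In 3′ libraries a transcript is read near its end, so gene length does not enter the level and CPM of different genes can be set side by side, though 3′ ends may be captured unequally. With ITA-LNP the mean levels ran in the order Vcam1, Selp (150 CPM), Itgb2 (115 CPM), Icam1 (76.7 CPM), Selplg (28.2 CPM), Itga4 (26.4 CPM), Icam2 (13.5 CPM), Sele (1.46 CPM) and Itgal (0.677 CPM). Ranges were apart between Vcam1 and Selp and between Itgb2 and Icam1, and they overlapped between all other neighbours. With control-LNP the order was Itgb2 (601 CPM), Itga4 (283 CPM), Selplg (224 CPM), Itgal (168 CPM), Icam2 (34.2 CPM), Vcam1 (15.4 CPM), Selp (12.8 CPM), Icam1 (11.8 CPM) and Sele (1.18 CPM). There the ranges overlapped between Itga4, Selplg and Itgal in turn and between all neighbours from Vcam1 down to Sele.

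Each endothelial molecule was set against its leukocyte partner within each library. Of 6 pairs, 3 were above 0 in all ITA-LNP libraries and below 0 in all control-LNP libraries. The log2 ratio of Vcam1 to Itga4, each as CPM + 1, was 5.11, 5.61 and 6.25 with ITA-LNP and lay between -4.24 and -3.98 in the 4 control-LNP libraries. Selp over Selplg was 2.65, 2.01 and 2.65 with ITA-LNP, against -3.32, -7.62, -4.33 and -3.09 with control-LNP. Icam1 over Itgal averaged 5.42 ± 0.83 with ITA-LNP and -4.34 ± 2.16 with control-LNP (SD, n = 3 and 4). Control-LNP replicate 2, with 0 Icam1 reads, was at -7.54, and replicates 1, 3 and 4 at -3.60, -2.86 and -3.34. Itgal had 3, 5 and 6 reads with ITA-LNP, so its ratios there lean on the 1 CPM added. Icam1 stayed under Itgb2 in every library of both groups, at -0.68 ± 0.64 with ITA-LNP and -6.17 ± 2.14 with control-LNP. Here too control-LNP replicate 2 was the lowest, at -9.38. Icam2 over Itgal was 3.99, -0.27 and 3.36 with ITA-LNP, against -2.61, -2.57, -1.63 and -2.20 with control-LNP. The value of -0.27 rests on 3 Icam2 reads and 5 Itgal reads. Sele over Selplg, like Icam1 over Itgb2, was below 0 in every library, at -3.95 ± 2.06 with ITA-LNP and -6.83 ± 1.09 with control-LNP. These ratios are descriptions and were given no test.

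**Figure D3:**
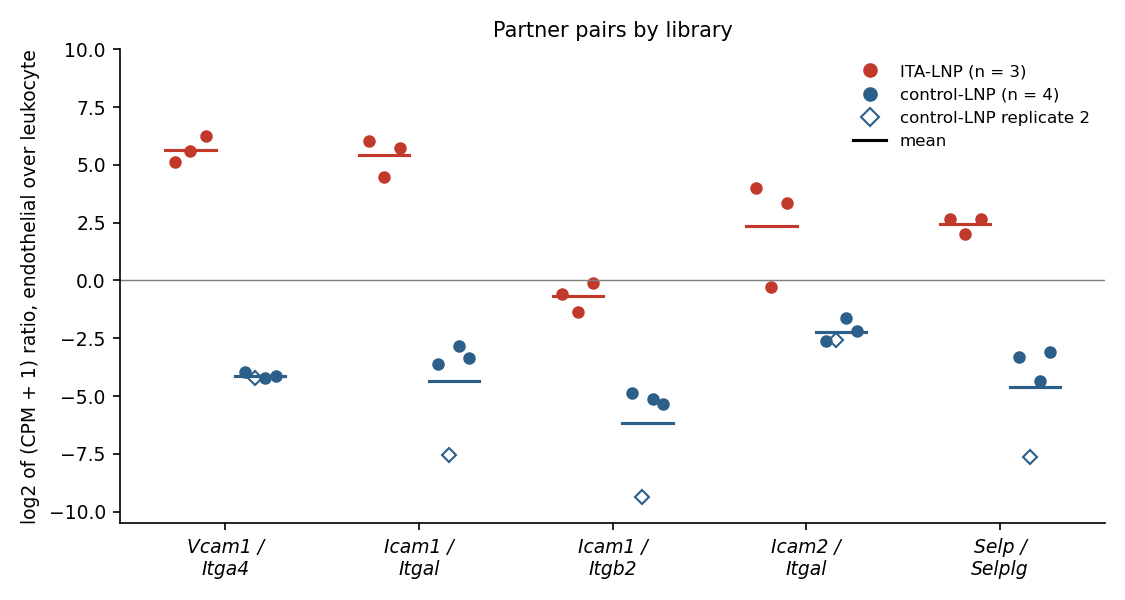
Log2 ratio of the endothelial molecule to its leukocyte partner, each as CPM + 1, in each library; points are libraries, open diamonds control-LNP replicate 2, and bars group means, with ITA-LNP left of control-LNP in each pair. Vcam1 over Itga4 lies at 5.11 to 6.25 with ITA-LNP and between -4.24 and -3.98 with control-LNP, and Icam1 over Itgb2 lies under 0 in all 7 libraries.

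Members were also set against summed markers of endothelium or of leukocytes, and which cells made each member was not tested. As a percentage of 15 summed endothelial markers, Vcam1 was 67.7 ± 1.34% with ITA-LNP and 4.18 ± 1.85% with control-LNP (SD, n = 3 and 4). The shares of Icam1 overlapped, at 3.87 ± 1.68% with ITA-LNP and 3.71 ± 2.75% with control-LNP, and so did those of Selp, at 7.56 ± 1.93% with ITA-LNP and 3.94 ± 2.99% with control-LNP. Icam2 went the other way without overlap, at 0.684 ± 0.600% with ITA-LNP and 9.98 ± 4.34% with control-LNP. Pecam1 and Vwf made up 13.2% to 18.2% of the summed endothelial markers with ITA-LNP and 80.4% to 88.7% with control-LNP, so the sum had a different makeup in the 2 groups.

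On the leukocyte side, the members did not keep one proportion. As a percentage of 10 summed pan-leukocyte markers, Itga4 was 6.41 ± 2.33% with ITA-LNP and 5.56 ± 1.81% with control-LNP, and Selplg was 6.72 ± 3.09% with ITA-LNP and 4.48 ± 1.27% with control-LNP, with overlapping values for both. Itgal was 0.161 ± 0.0376% with ITA-LNP and 3.35 ± 0.793% with control-LNP. Itgb2 went the other way, at 27.9 ± 7.04% with ITA-LNP and 12.1 ± 2.88% with control-LNP, and neither gene's groups overlapped. Beside these shares, summed T cell markers were 11.3 times, B cell markers 87.2 times and neutrophil markers 141 times as high with control-LNP as with ITA-LNP. The neutrophil ratio was 59.1 without control-LNP replicate 2. Summed macrophage markers were 1993 ± 426 CPM with ITA-LNP and 1293 ± 304 CPM with control-LNP. Lyz2, singled out after its values were seen, made up most of both sums. It averaged 1500 CPM with ITA-LNP and 1225 CPM with control-LNP and did not pass. Of the 9 macrophage markers tested, 5 rose and none fell, beside 10.3% of all tested genes that were higher and 5.15% lower. The part of these cell types in the shares was not tested.

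**Figure D4:**
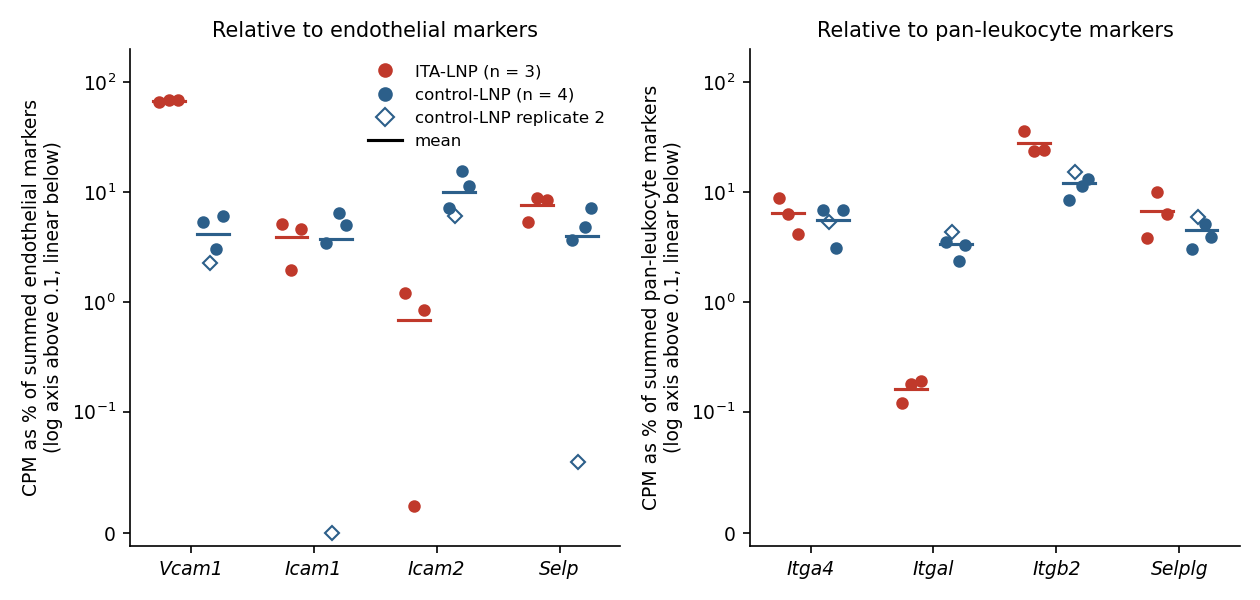
CPM of members as a percentage of the summed CPM of 15 endothelial markers (left) or 10 pan-leukocyte markers (right) in each library, on axes that are logarithmic above 0.1% and linear below; points are libraries, open diamonds control-LNP replicate 2, and bars group means, with ITA-LNP left of control-LNP. Itga4 and Selplg overlap between groups, while Itgal is lower and Itgb2 higher with ITA-LNP in this measure.

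Promoter sequences were found in the RefSeq set used here (GRCm38.p6) for 4 of the 9 members, Icam1, Selp, Sele and Itga4, and all are shown. None was found there for Vcam1, Icam2, Selplg, Itgal and Itgb2, so the endothelial and leukocyte sides cannot be compared by promoter. Of the members shown, Icam1 and Selp were higher in every ITA-LNP library, Itga4 was lower and Sele was hardly detected. Each line gives the 250 bases before the annotated start, plus strand, at chr9:21015690-21015939, chr1:164115014-164115263, chr1:164047984-164048233 and chr2:79255176-79255425. Capitals mark matches to the kappaB outline bound by NF-kappaB (3 times G, then 5 bases of any kind, then 2 times C), to TATAAA, known as the box where transcription machinery assembles, to GAGGAA, which is a core of sites bound by the leukocyte factor PU.1, or to GATAAG, which is bound by the GATA factors. Both strands were searched, and no matches overlapped.
Icam1: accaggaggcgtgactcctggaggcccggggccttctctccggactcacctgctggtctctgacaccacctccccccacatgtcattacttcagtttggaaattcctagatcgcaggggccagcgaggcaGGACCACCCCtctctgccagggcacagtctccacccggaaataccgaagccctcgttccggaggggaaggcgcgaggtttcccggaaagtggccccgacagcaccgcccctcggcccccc
Selp: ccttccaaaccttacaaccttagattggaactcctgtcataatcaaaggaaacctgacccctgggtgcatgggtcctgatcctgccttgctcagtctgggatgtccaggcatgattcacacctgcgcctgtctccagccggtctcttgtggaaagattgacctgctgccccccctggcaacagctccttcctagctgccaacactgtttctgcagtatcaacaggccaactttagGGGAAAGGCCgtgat
Sele: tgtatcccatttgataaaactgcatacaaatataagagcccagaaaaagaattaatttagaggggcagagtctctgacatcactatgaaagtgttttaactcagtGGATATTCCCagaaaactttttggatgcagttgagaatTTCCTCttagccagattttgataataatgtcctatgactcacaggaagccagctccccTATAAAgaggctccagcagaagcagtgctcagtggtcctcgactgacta
Itga4: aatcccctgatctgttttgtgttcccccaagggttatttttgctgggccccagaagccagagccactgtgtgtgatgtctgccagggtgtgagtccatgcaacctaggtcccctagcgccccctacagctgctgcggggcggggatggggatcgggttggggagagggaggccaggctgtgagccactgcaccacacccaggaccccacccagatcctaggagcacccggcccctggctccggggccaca

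The kappaB outline was found 1 time in each of Icam1, Selp and Sele and not in Itga4. It is common, being present in 45.8% of 32851 promoters of the same length. TATAAA was found in Sele, as in 12.4% of all promoters, and GAGGAA, on the other strand, likewise in Sele, as in 23.3%. GATAAG, present in 6.55% of all promoters, was found in none of these. A match in a window is a description of its letters and no evidence of binding.

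Other genes of the adhesion cascade were grouped by role. Of 16 further molecules of the endothelial surface and its junctions, 13 were tested. Their median log2 fold change was 2.69, against 0.15 over all genes tested. Beside 10.3% of all tested genes that were higher and 5.15% that were lower, 7 of the 13 were higher with ITA-LNP and none lower. They included Emcn (7.07 ± 0.79, adjusted p = 0.000461), Mcam, an adhesion molecule of endothelium and mural cells (6.46 ± 0.80, adjusted p = 0.000740), and Podxl, a sialomucin (5.65 ± 0.83, adjusted p = 0.00173). Emcn was at 188 ± 54.0 CPM with ITA-LNP and 0.417 ± 0.413 CPM with control-LNP (SD, n = 3 and 4). Madcam1, which binds the integrin formed with the beta7 chain, had 0 reads in all 7 libraries.

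Of 16 further adhesion receptors of leukocytes, 15 were tested, of which 5 were lower and 1 higher, with a median of -2.58, beside 5.15% of all tested genes that were lower and 10.3% that were higher. Without control-LNP replicate 2, 11 were lower and 2 higher, in a fit that called 15.7% of all genes in each direction. Spn, leukosialin, and Itgb7, the beta7 chain, had log2 fold changes of -5.79 ± 0.72 (adjusted p = 0.000769) and -5.76 ± 0.87 (adjusted p = 0.00196). The higher gene was Itga9, an alpha chain that also binds VCAM-1 and that smooth muscle makes too, at 157 ± 41.8 CPM with ITA-LNP and 2.86 ± 3.10 CPM with control-LNP (5.60 ± 0.82, adjusted p = 0.00170).

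Of 15 tested genes that promote or restrain integrin activation, 4 fell and none rose (median -1.13). Over all tested genes, 5.15% were lower and 10.3% higher. Without control-LNP replicate 2, 10 fell and 1 rose, in a fit that called 15.7% of all genes in each direction. Fermt3, kindlin-3, which blood cells need to activate their integrins, was at 1.10, 0.589 and 0.549 CPM with ITA-LNP, against 116 to 266 CPM with control-LNP (-6.48 ± 0.69, adjusted p = 0.000330). Its last exon overlaps Trpt1. The adaptors Fyb (-2.74 ± 0.47, adjusted p = 0.00333) and Skap1 (-5.02 ± 0.93, adjusted p = 0.00505) fell as well. Of 12 genes for the sugars of selectin ligands, 10 were tested (median 1.06). Beside 5.15% of all tested genes that were lower, 1 of the 10 fell. This was the fucosyltransferase gene Fut4, with 0 reads in all ITA-LNP libraries and 2.62 to 8.22 CPM with control-LNP, and its call was lost in all leave-out fits other than that without control-LNP replicate 2 (adjusted p up to 0.126). Fut7, whose enzyme serves the same ligands, also had 0 reads with ITA-LNP and reached at most 0.985 CPM with control-LNP.

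Among 16 remaining integrin chains, 14 were tested, with 5 higher and 3 lower and a median of 3.28. The shares over all tested genes were 10.3% higher and 5.15% lower. Without control-LNP replicate 3 or 4, 3 of the chains were higher. Itga8, a chain of smooth muscle and mesangial cells, was at 1217, 1304 and 1191 CPM with ITA-LNP, about the level of Vcam1, and at 4.81 to 8.82 CPM with control-LNP (7.33 ± 0.47, adjusted p = 2.03e-05). Itga7 (5.85 ± 0.80, adjusted p = 0.00127) and Itga11 (4.11 ± 0.74, adjusted p = 0.00436), which bind laminin and collagen, rose too. The lower chains were Itga2b, the platelet alpha chain (-6.97 ± 0.63, adjusted p = 0.000139), Itga6 (-2.56 ± 0.55, adjusted p = 0.0109) and Itgb3 (-1.99 ± 0.49, adjusted p = 0.0210). Itgb3 lost its call in 4 of the 7 fits that left out a library, with an adjusted p of up to 0.0617 (without ITA-LNP replicate 1 or 3, and without replicate 1 or 4 of control-LNP).

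**Figure D5:**
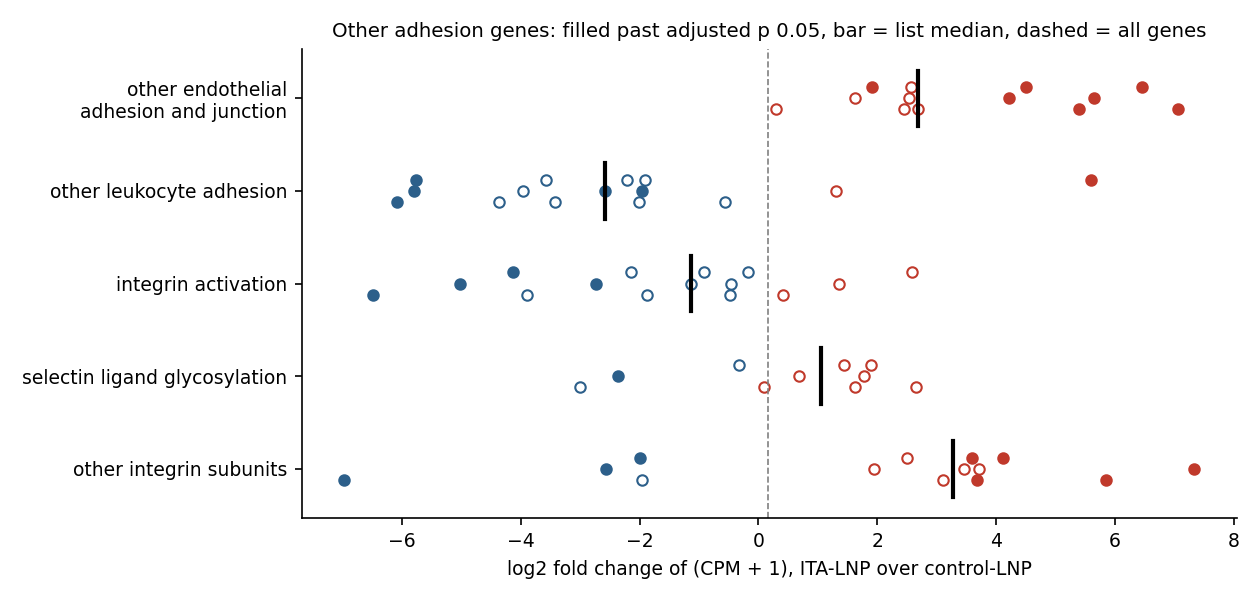
Log2 fold change of (CPM + 1), ITA-LNP over control-LNP, of each tested gene in 5 lists of further adhesion genes; filled points passed an adjusted p of 0.05, bars are list medians and the dashed line is the median of all genes tested (0.15). The median is 2.69 in the endothelial list and -2.58 in the leukocyte list.

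Genes whose pattern was nearest to each tested member were ranked by Euclidean distance over the 7 libraries, each profile being log2(CPM + 1) less its own mean. Nearest were Dpysl3 and Fgfr2 to Vcam1 (distances 0.57 and 0.65), Tnfaip1 and Pxdc1 to Icam1 (0.50 and 0.53), Ddx47 and Dpm2 to Icam2 (0.80 and 0.83), and Wwp2 and Fam102b to Selp (0.82 and 0.83). On the leukocyte side they were Sh3bgrl3 and Wipf1 to Selplg (0.85 and 0.87), Lyn and Ap1s2 to Itga4 (0.79 and 0.84), Klrk1 and Plac8 to Itgal (0.78 and 0.81), and Cd48 and Arhgap25 to Itgb2 (0.41 and 0.66). Between members, Selplg and Itgb2 were the closest pair at 1.68, followed by Itga4 and Itgb2 at 1.80 and Icam1 and Selp at 2.01. The 2 genes nearest to Icam2 were also low in ITA-LNP replicate 2, at 0.442 and 0.295 CPM. They were picked by likeness over these same libraries, so this follows largely from the choice.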

How the data were processed

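The 9 genes and all lists were chosen with earlier results of these data known. Total RNA (500 ng) went into QuantSeq 3′ mRNA libraries, per the labels' protocols. The submitters' processing notes name the build mm10; aligner, counter, annotation and strand handling were not given in the sources used here. In the deposited table the authors give log10 of CPM + 1, a unit read off the numbers themselves: 10 to each value, less 1, sums to 1000000 per library. Whole reads came out for 100% of values within 0.01 read, which gave the depths. Titles write NP where the protocol writes LNP; both were taken as the same particle, and titles gave groups and replicate numbers.

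Levels were set to log2(CPM + 1) and filtered at a mean of 1, which kept 12636 genes, and tested with limma-trend (limma 3.58.1, R 4.3.3), ITA-LNP against control-LNP, with no covariate and a threshold of 0.05. The fit was tested on simulated counts. Fold changes on this scale understate those of low genes. Alternatives were other filters, pseudocounts of 0.25 and 4 CPM, median centring, quantile normalization, limma-voom on the recovered reads, a replicate block and leaving out each library, with the tested genes kept. Coordinates are from GENCODE M21 (mm10) and promoters from RefSeq. The members were named in any case; of each list of other adhesion genes, up to 3 higher and 3 lower genes with the lowest p; and for likeness the 2 nearest genes. A gene that this rule names is not reported here. Python 3.11.15, scipy 1.17.1, pandas 2.3.3, matplotlib 3.10.9 and numpy 2.4.6 were used for tables and plots.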

Additional observations from a re-analysis of the deposited data

Results flagged for a closer look

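Icam1 in control-LNP replicate 2 was flagged because that library, at 0 CPM, lay far below the other control-LNP libraries, at 15.2, 16.7 and 15.3 CPM. Its gap to the nearest of them was 0.968 of the group's whole range on the log2(CPM + 1) scale. The critical value for such gaps, Dixon's at 95%, is passed by chance in about 1 of 20 groups. No other member was flagged among the control-LNP libraries. The ITA-LNP libraries were not screened in this way.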

How the results depend on the processing

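Vcam1, Icam2, Selplg, Itga4 and Itgal kept their direction and their side of the threshold in all 16 alternatives, and no member reversed. Icam1 passed with a pseudocount of 4 CPM (log2 fold change 2.50), quantile normalization (3.08) and, without control-LNP replicate 2, both plainly (2.10) and with median centring (1.87, an alternative chosen after seeing the data). Over leaving out single libraries it was 2.10 to 3.56. Selp was 3.07 to 4.45 over the same fits and lost its call in 3 of them, so that 1 to 3 members were higher. Itgb2 lost its call with median centring of all libraries (-3.51) and kept it with median centring without control-LNP replicate 2. Median centring moved the median log2 fold change of all genes from 0.15 to -0.98. It shifts all genes of a library by the same amount. Relative to these medians the members' changes are therefore the same by construction, 6.31 for Vcam1 and -2.53 for Itgb2.

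Over the whole table, 1957 genes changed, 1306 higher and 651 lower. Median centring gave 741 higher and 1249 lower, and quantile normalization 3015 changed with 1614 higher and 1401 lower. Leaving out single libraries gave 1372 to 3964 changed, 974 to 1982 higher and 398 to 1982 lower; the highest were without control-LNP replicate 2. That exclusion with median centring gave 4228 changed and 2447 lower. The replicate block gave 1060 changed, 738 higher and 322 lower. Same-numbered libraries did not deviate together (correlations -0.0173 to 0.00528), and no ITA-LNP library correlated best with its own number, so the numbers were not taken as pairs. Of the other leukocyte adhesion genes, 9 were lower with median centring, 10 with quantile normalization and 3 with the block; of the integrin activation genes, 7 were lower with quantile normalization and 7 with limma-voom; of the remaining integrin chains, 8 were higher with quantile normalization and 2 with the block. The planned edgeR alternative was not run, and limma-voom was the only count method used on the recovered reads. The causes were not tested. Low read counts limit Sele and, with ITA-LNP, Itgal.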
